A study of Mus musculus with 13 samples.

Results

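The 77 genes described here are those whose transcript level in mouse back skin followed a fitted 24 h wave with its top between 4 and 8 h after lights on, out of 16322 genes tested. Their levels came from C57Bl6 males aged 30 days after birth (P30), whose whole back skin was in anagen, when hair follicles grow. The mice lived under alternating 12 h of light and 12 h of dark with standard chow freely available, and skin was sampled at 4 h steps between ZT2 and ZT50 (ZT is the time in h since the first lights on). RNA of 3 mice per time was pooled in equal parts and measured on 1 Affymetrix whole-transcript array, which gave 13 pools from 39 mice. The time of day of 2 h has 3 pools (ZT2, ZT26 and ZT50), and 6, 10, 14, 18 and 22 h have 2 pools each, 1 from each day. No genotype other than this strain and no treatment is part of the comparison. Each pool averages 3 mice, which hides how single mice vary, and in whole skin fewer cells of a type and less RNA per cell cannot be told apart.

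The members were chosen by the wave itself. An ordinary least squares fit of log2(intensity + 16) on linear time and a 24 h cosine and sine gave each gene an amplitude (the height of the wave in log2), a fitted peak and an F p for the wave. A gene is a member if p was under 0.02, the amplitude at least 0.12 and the peak from 4 h to under 8 h, among genes whose mean reached the 25th percentile over probes. The 3 genes that met these limits under symbols of predicted genes, RIKEN clones, microRNAs or odorant and vomeronasal receptors were left out. The 77 members are 0.472% of the genes tested and 26.1% of the 295 genes that met the limits at any peak time. Because the wave chose them, their folds and peaks are a description with no test, and nothing is read from that share. Among all genes, 1 member, Nr1d1, had a Benjamini-Hochberg adjusted p of the ordinary F under 0.05, and the next smallest among the members was 0.0760.

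Hours 4 to 8 after lights on are the middle of the rest phase of the mouse, a nocturnal animal. Its molecular clock runs in skin cells as in other tissues: the activators Clock and Arntl bind E-box sequences and switch on their own repressors, the Per, Cry and Nr1d genes, whose products shut the activators down in turn. Nr1d1, switched on directly through E-boxes, crests in the day, and Arntl, which the Nr1d proteins repress, crests near the end of the night. Other genes switched on in this loop crest later, and here Per2 and Cry1 had fitted peaks at 13.3 and 16.9 h, in the dark. Skin transcripts can also follow feeding, body temperature and hormones that vary over the day.

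Most of the set moved by little. The peak-to-trough fold of a member is 2 to the power of 2 times its amplitude, and it understates the change of dim genes because of the added 16. The median amplitude was 0.15 log2, a fold of 1.23, and 41 of 77 members had an amplitude under 0.15. Only Nr1d1 stood far above the rest, with an amplitude of 1.25 against 0.30 for the next gene, Cgref1, and these 2 were the members with a fold of 1.5 or more. The members' residual scatter was small, with a median SD of 0.083 log2 around the wave against 0.106 over all genes tested, as a limit on p favours quiet genes. The fitted peaks lay between 4 and 6 h in 50 members and between 6 and 8 h in 27, with a median of 5.5 h and a median SE of 0.87 h. For 31 members the peak lay within 1 SE of an edge of the window.

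The raw times of day come from the same pools that chose the members. The values below, and their contrast with all genes, follow from the rule and are a description only. The mean over the pools of a time was highest at 6 h in 47 members, at 2 h in 18, at 10 h in 11 and at 22 h in 1. It was lowest at 18 h in 40 members, at 14 h in 26 and at 22 h in 11. Both 6 h pools lay above both 18 h pools in 71 of 77 members, and in 17.5% of all genes tested. In 8 members each of the 7 light pools lay above each of the 6 dark pools, namely Nr1d1, Eci2, Cdca3, Ip6k2, Gdpd1, Wwtr1, Cib1 and Rab11fip5. The share of all genes with this separation was not counted. A rule that asks for a peak in the light favours it, so nothing is read from this count. The mean of the set as a whole, in log2 from each gene's own mean, was 0.14 at ZT6 and 0.16 at ZT30, against -0.20 at ZT18 and -0.11 at ZT42.

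**Figure D1:**
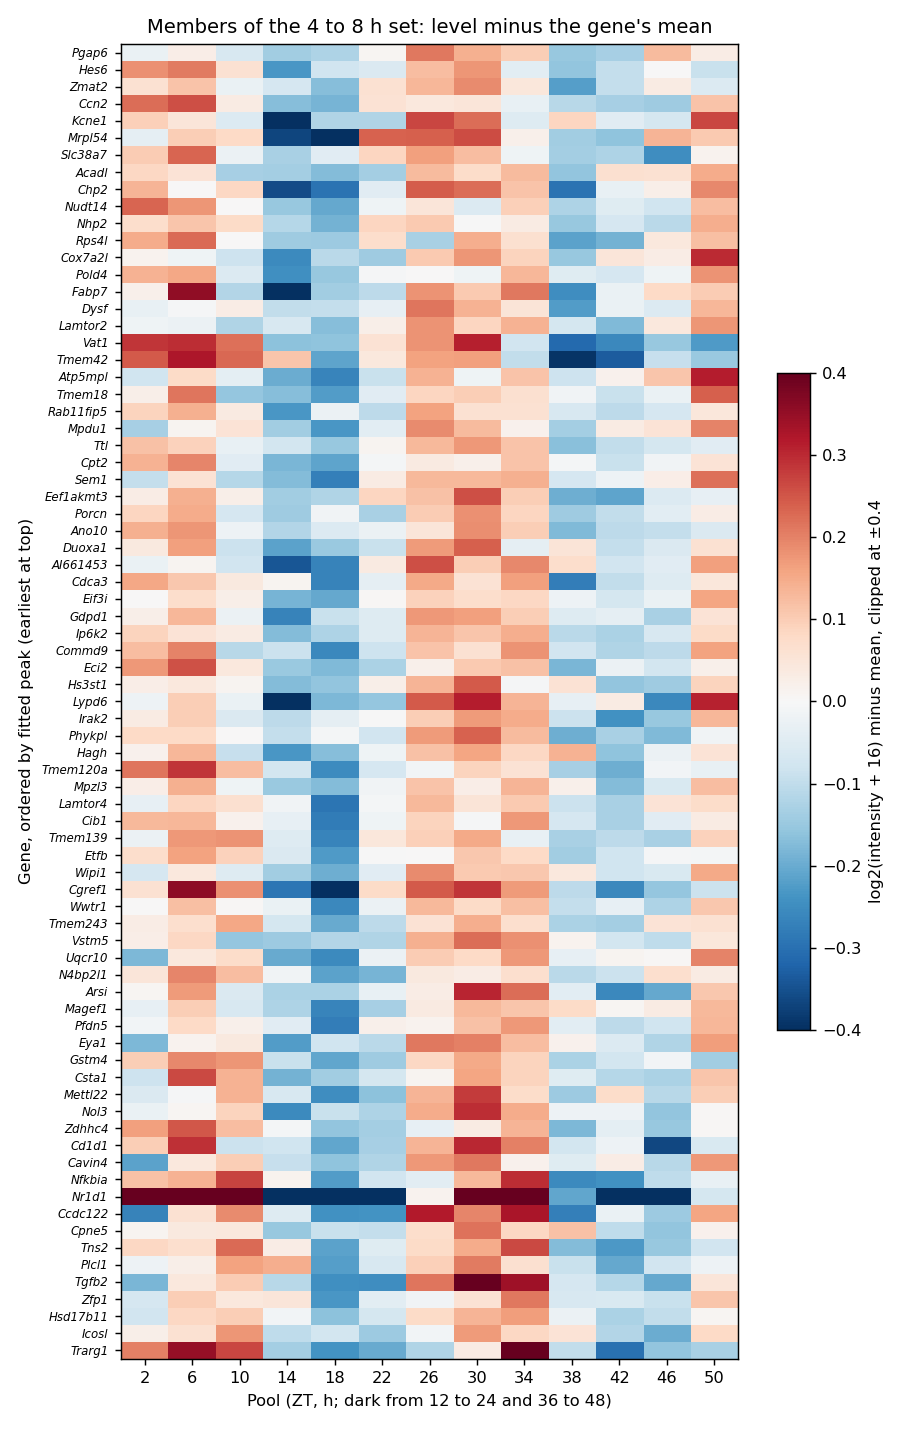
Level of each of the 77 members in each of the 13 pools, as log2(intensity + 16) minus the gene's mean, with genes down the page in order of fitted peak and pools in order of ZT. Red (higher) fills most of the light pools and blue (lower) most of the dark ones, and the scale is clipped at 0.4, which Nr1d1 passes in most pools.

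The limits of the rule cut through a continuum. Cavin4 lay just inside the limit on p (0.0199) and Tekt5 just outside it (0.0210). Ano10 was the member with the smallest amplitude (0.123), and Chchd1 fell short of the limit with 0.119. At the early edge Pgap6 peaked at 4.00 h and stayed in, while Uqcr11, a small subunit of respiratory complex III, peaked at 3.95 h and stayed out. At the late edge Trarg1 peaked at 7.86 h and stayed in, and Plekhb1 peaked at 8.06 h and stayed out. Over all peak times the 295 genes formed a daytime group and a night group, with 30 genes at 2 to 4 h, 50 at 4 to 6 h and 27 at 6 to 8 h, and 37, 48 and 37 in the steps from 12 to 18 h.

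**Figure D2:**
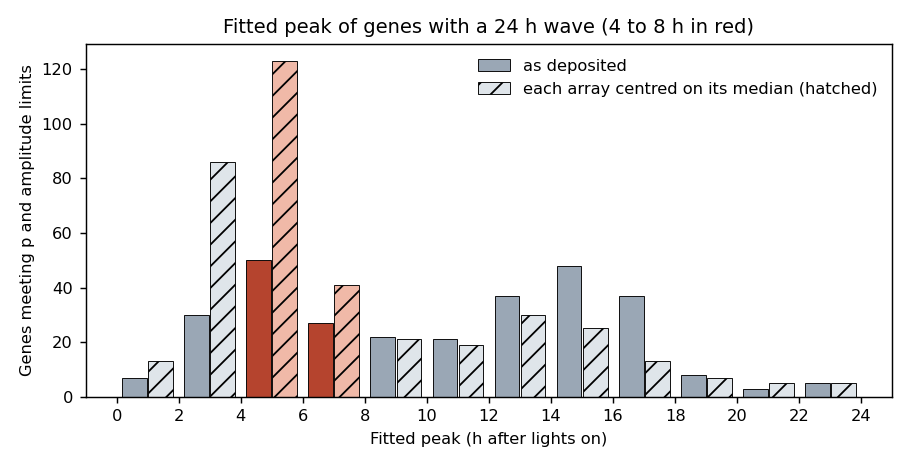
Number of genes that met the limits on p and amplitude, by fitted peak in steps of 2 h, for values as deposited (solid bars) and with each array centred on its median (hatched bars). The steps from 4 to 8 h are red; they hold 50 and 27 genes as deposited and 123 and 41 after centring.

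The size of the set depends on how the arrays are scaled, and their median and spread are given here for that reason. The median of an array lay between 440.0 and 483.2 intensity units, and in log2 it had a fitted amplitude of 0.029 with a peak at 16.4 h, opposite to the members. The wave of the medians did not meet the limit on p that the rule sets for genes, so a daily movement of the medians was not shown, and that of the spread was not tested. The spread of an array, as the interquartile range of all probes, lay between 2.54 and 2.82 log2 and had a fitted amplitude of 0.065 with a peak at 5.0 h, close to the members' median peak. It was 2.70, 2.69 and 2.58 at ZT2, ZT6 and ZT10, 2.61, 2.65 and 2.75 at ZT14, ZT18 and ZT22, 2.71, 2.76 and 2.82 at ZT26, ZT30 and ZT34, 2.54 each at ZT38, ZT42 and ZT46, and 2.64 at ZT50. On the second day the light and dark arrays thus fell apart, and on the first day they overlapped.

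With each array centred on its median, 164 genes met the rule, of which 75 were among the 77 (all but Cd1d1 and Phykpl). Every member's amplitude was larger then, by a median ratio of 1.19, and the members' peaks lay between 4.1 and 7.6 h. The group that peaked from 16 h to under 20 h went the other way, with 20 genes after centring against 45 as deposited. With quantile normalization, which also levels the spread, 83 genes met the rule and 59 were among the 77, while the median ratio of the members' amplitudes was 0.965. In 65 members p was then still under 0.02, and in 75 the peak still lay between 4 and 8 h. Both scalings kept 58 members.

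**Figure D3:**
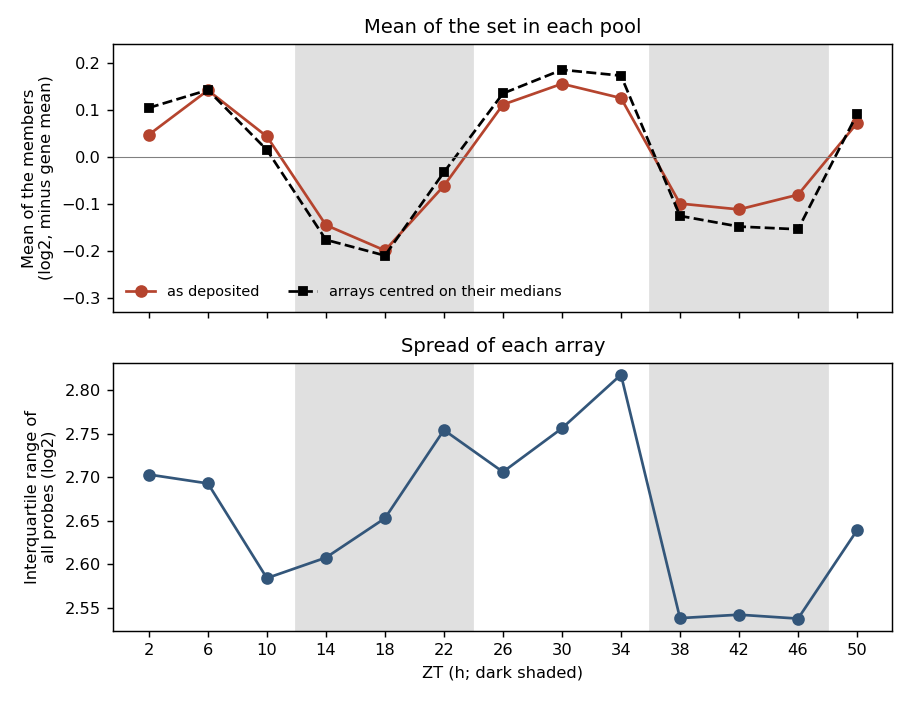
Top: mean of the 77 members in each pool, in log2 from each gene's mean, as deposited (circles) and with arrays centred on their medians (squares), against ZT with the dark hours shaded. Bottom: interquartile range of all probes on the same arrays, between 2.54 and 2.82 log2.

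As deposited, members were brighter than most genes. Their median level was 10.10 log2 against 9.66 over all genes tested, and 56 of 77 (72.7%) lay above the median of all genes. In 4 classes of level of equal size, from dim to bright, the set held 7, 14, 36 and 20 members, while the 45 genes that peaked from 16 to under 20 h numbered 23, 13, 6 and 3. Genes taken at any p showed the same tilt. A fitted peak between 4 and 8 h was found in 7.01% of the dimmest class, then 16.4%, 25.7% and 25.5%. With quantile normalization these shares were 17.5, 22.4, 23.0 and 21.8%. The 83 genes that met the rule then, 59 of them among the 77, numbered 18, 24, 26 and 15. The gap in share between the dimmest class and the others was smaller with this scaling, and the class next to the brightest stayed the highest. The brightest class held the fewest of these 83 genes, so a tilt to bright genes was not seen in the set chosen under this scaling.

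Nr1d1, which encodes the nuclear receptor REV-ERB alpha, the repressor of Arntl, led the set. Nr1d1 had an intensity of 3282 at ZT2, 4715 at ZT6, 3516 at ZT10, 1266 at ZT14, 758 at ZT18 and 934 at ZT22 on the first day. From ZT26 on it had 1898 at ZT26, 3613 at ZT30, 4429.6 at ZT34, 1627 at ZT38, 895 at ZT42, 924 at ZT46 and 1790.3 at ZT50. The 7 light pools, lowest at ZT50 with 1790.3, all lay above the 6 dark pools, highest at ZT38 with 1627. The time of day of 6 h averaged 4164 ± 780 and that of 18 h 826 ± 96.7 (SD, n = 2 each). The fitted fold was 5.66 with a peak at 7.2 ± 0.3 h (SE, 13 pools). Its paralogue Nr1d2 peaked at 9.0 h with a fold of 3.36, Dbp, an output factor driven by the clock, at 9.7 h with 5.85, and Per3 at 10.8 h with 2.94, all outside the window. Nr1d1 was the 1 member among 22 measured genes of the core clock list (4.55%, against 0.472% of all genes), and Csnk1e, a kinase of the Per proteins, was the 1 other of these genes with a fitted peak between 4 and 8 h, at an amplitude of 0.04. None of the 24 measured genes of the list of known clock outputs was a member.

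The promoter of Nr1d1 is shown with those of Nfkbia and Tgfb2, since these 3 are the members of the clock, NF-kB and TGF-beta lists. The windows reach from upstream of the start of the gene to just past it and are written 5′ to 3′, on the minus strand of GRCm38.p6 (RefSeq), chr11:98775328-98775627 for Nr1d1, chr12:55492598-55492897 for Nfkbia and chr1:186705940-186706239 for Tgfb2. Capitals mark an E-box (CACGTG) in Tgfb2, its variant CACGTT, read on the other strand, in Nr1d1, and a kappaB form in Nfkbia.
Nr1d1: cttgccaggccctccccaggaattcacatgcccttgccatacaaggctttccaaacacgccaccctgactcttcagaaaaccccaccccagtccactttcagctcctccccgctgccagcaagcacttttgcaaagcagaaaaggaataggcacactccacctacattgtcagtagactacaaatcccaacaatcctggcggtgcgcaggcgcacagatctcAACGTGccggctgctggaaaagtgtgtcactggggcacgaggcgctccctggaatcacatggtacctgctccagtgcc
Nfkbia: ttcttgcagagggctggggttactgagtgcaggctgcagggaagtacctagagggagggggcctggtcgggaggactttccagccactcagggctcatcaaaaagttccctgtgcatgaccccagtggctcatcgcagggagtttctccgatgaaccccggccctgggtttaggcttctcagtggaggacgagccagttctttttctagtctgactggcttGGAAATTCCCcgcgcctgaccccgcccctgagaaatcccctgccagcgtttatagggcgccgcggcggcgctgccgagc
Tgfb2: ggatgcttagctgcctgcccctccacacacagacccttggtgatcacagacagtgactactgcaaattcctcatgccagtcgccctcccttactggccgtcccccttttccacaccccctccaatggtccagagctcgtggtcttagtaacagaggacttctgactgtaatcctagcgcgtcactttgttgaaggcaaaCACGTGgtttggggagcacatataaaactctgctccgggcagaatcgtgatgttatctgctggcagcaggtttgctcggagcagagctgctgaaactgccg

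Over the set some motifs stood in a smaller share of members than of tested genes and others in a larger one. The counts are small, no difference was tested, and nothing is read from them. RefSeq windows of this length were found for 60 of the 77 members and for 12808 of the genes tested, and both strands were searched. CACGTG stood in the windows of 6 of 60 members (10.0%), against 10.6% of the tested genes. These are Cgref1, Cib1, Commd9, Lamtor4, Slc38a7 and Tgfb2. CACGTT stood in 2 members (3.33%, against 5.89%), the D-box form TTANNTAA in 0 (against 4.75%), the nuclear receptor motif AGGTCA in 12 (20%, against 15.95%) and the kappaB form in 3 (5%, against 6.20%). The TEAD motif GGAATG stood in 11 (18.3%, against 14.8%), the AP-1 motif TGANTCA in 2 (3.33%, against 7.22%), CCAAT in 23 (38.3%, against 41.5%) and TATAAA in 6 (10.0%, against 10.9%). The forms searched overlap in part, a match is only a run of letters, and its absence from these windows says nothing of sites elsewhere. The median GC content of the windows was 61.0% in members and 59.3% in tested genes.

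Nfkbia encodes I-kappa-B alpha, the inhibitor that holds the transcription factor NF-kB in the cytoplasm and is itself induced by NF-kB and by glucocorticoids. For Nfkbia the first day gave 1656 at ZT2, 1684 at ZT6, 1844 at ZT10, 1540.0 at ZT14, 1306 at ZT18 and 1447 at ZT22. The later pools gave 1482 at ZT26, 1673 at ZT30, 1879 at ZT34, 1277 at ZT38, 1289 at ZT42, 1423 at ZT46 and 1496 at ZT50. The highest pools were those at 10 h on both days and the lowest ZT38, ZT42 and ZT18, and ZT26 and ZT50 (light) lay below ZT14 (dark). It averaged 1679 ± 7.76 for 6 h and 1297 ± 12.3 for 18 h (SD, n = 2 each), a fitted fold of 1.32 with a peak at 7.2 ± 0.8 h (SE). It was the 1 member among 18 measured genes of the NF-kB list and among 22 measured glucocorticoid targets. On the NF-kB list 3 of 18 genes (16.7%, against 18.7% of all genes tested) had a fitted peak between 4 and 8 h at any p, and the subunit genes Rela and Nfkb2 had amplitudes of 0.03 and 0.01.

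Other immune members were dimmer. Irak2, a kinase that carries signals from interleukin-1 and Toll receptors, averaged 668 ± 23.6 at 6 h and 552 ± 57.0 at 18 h (SD, n = 2 each; fitted fold 1.23, 5.6 h). It was the 1 member among 13 measured genes of the interleukin-1 and Toll list. Cd1d1, which presents lipids to natural killer T cells, averaged 514 ± 1.73 at 6 h and 383 ± 36.8 at 18 h (fold 1.34, 6.9 h), and did not meet the rule after median centring or quantile normalization. Icosl, a ligand that costimulates T cells, averaged 678 ± 36.8 at 6 h and 584 ± 12.1 at 18 h (fold 1.24, 7.8 h). Csta1, a stefin that inhibits cysteine proteases, is described pool by pool: it had 735 at ZT2, 939 at ZT6, 861 at ZT10, 682 at ZT14, 707 at ZT18 and 742 at ZT22, then 785 at ZT26, 871 at ZT30, 831 at ZT34, 754 at ZT38, 718 at ZT42, 713 at ZT46 and 842 at ZT50. Of its 7 light pools 6 lay above all dark pools, its ZT2 pool did not, and the fitted fold was 1.28 with a peak at 6.7 ± 0.6 h (SE). None of the marker lists of macrophages and dendritic cells (26 measured), T and NK cells (14), B and plasma cells (6), mast cells (10) or neutrophils (9) held a member. Members are 0.472% of all genes, so lists this short are likely to hold none. At any p, 46.2% of the macrophage and dendritic cell list had a fitted peak in the window, against 18.7% of all genes. In the other lists just named the share was at most 11.1%. The mean of the macrophage and dendritic cell list had a fitted amplitude of 0.022 log2 with a peak at 9.2 h, outside the window. It stood at -0.075 at ZT6 and at 0.117 at ZT30, so the days differed, and nothing is read from that share.

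Tgfb2, a secreted ligand of the TGF-beta family that is made in the hair follicle, was the 1 member among 32 measured TGF-beta and BMP genes. Tgfb2 stood at 757 at ZT2, 889 at ZT6, 925 at ZT10, 797 at ZT14, 725 at ZT18 and 722 at ZT22 on the first day. Afterwards it stood at 1002 at ZT26, 1165 at ZT30, 1094 at ZT34, 822 at ZT38, 796 at ZT42, 745 at ZT46 and 892 at ZT50. Its second day was higher than its first, with the top at ZT30, and ZT2 lay among the dark pools. The time of 6 h averaged 1027 ± 195 and that of 18 h 760 ± 50.1 (SD, n = 2 each), and the fitted fold was 1.498 with a peak at 7.6 ± 0.6 h (SE). The set also held Wwtr1, which encodes TAZ, a coactivator that binds TEAD factors when the Hippo kinases are off, and Ccn2, a secreted matrix protein gene and a standard target of TAZ and YAP.

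The intensity of Wwtr1 was 2106 at ZT2, 2289 at ZT6, 2110.1 at ZT10, 2067 at ZT14, 1759 at ZT18 and 2071 at ZT22. On the second day it was 2303 at ZT26, 2219.7 at ZT30, 2288 at ZT34, 1969.9 at ZT38, 2059 at ZT42, 1930.3 at ZT46 and 2268 at ZT50. Each light pool of Wwtr1 lay above each dark pool, with ZT2 (2106) and ZT22 (2071) the closest, and the fold was 1.21 at 6.1 ± 0.8 h (SE). Ccn2 had an intensity of 3174 at ZT2, 3246 at ZT6, 2774 at ZT10, 2409.9 at ZT14, 2385 at ZT18 and 2823 at ZT22 on the first day. From ZT26 on it had 2794 at ZT26, 2804 at ZT30, 2656 at ZT34, 2511 at ZT38, 2472 at ZT42, 2459 at ZT46 and 2939 at ZT50. Ccn2 was highest at ZT2 and ZT6 of the first day, and ZT22 (2823) lay above 4 of the 7 light pools. Its fold was 1.25 with an earlier peak at 4.1 ± 0.7 h (SE). Of 19 measured genes on a TAZ and YAP list drawn up after the members were seen, these 2 were members and 8 (42.1%) had a fitted peak between 4 and 8 h at any p, against 18.7% of all genes and 25.5% of the brightest 4081. They include Ccn1, a like target, with a fold of 1.24 at 6.5 h, which missed the limit on p, and Yap1 with 1.08 at 5.1 h. A list drawn up with its members in view favours such counts, and nothing is read from them. Tns2, a tensin of cell-matrix contacts, had a fold of 1.29 at 7.4 h with 1609 ± 64.4 at 6 h and 1278 ± 9.07 at 18 h (SD, n = 2 each). Hes6, a relative of the Notch-induced repressors, had a fold of 1.22 at 4.1 h, Eya1, a developmental coactivator with phosphatase activity, 1.24 at 6.6 h, and Porcn, which acylates Wnt proteins, 1.20 at 5.0 h. No gene of the 32 measured on the Wnt signalling list was a member, and 2 of them (6.25%) had a fitted peak in the window.

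**Figure D4:**
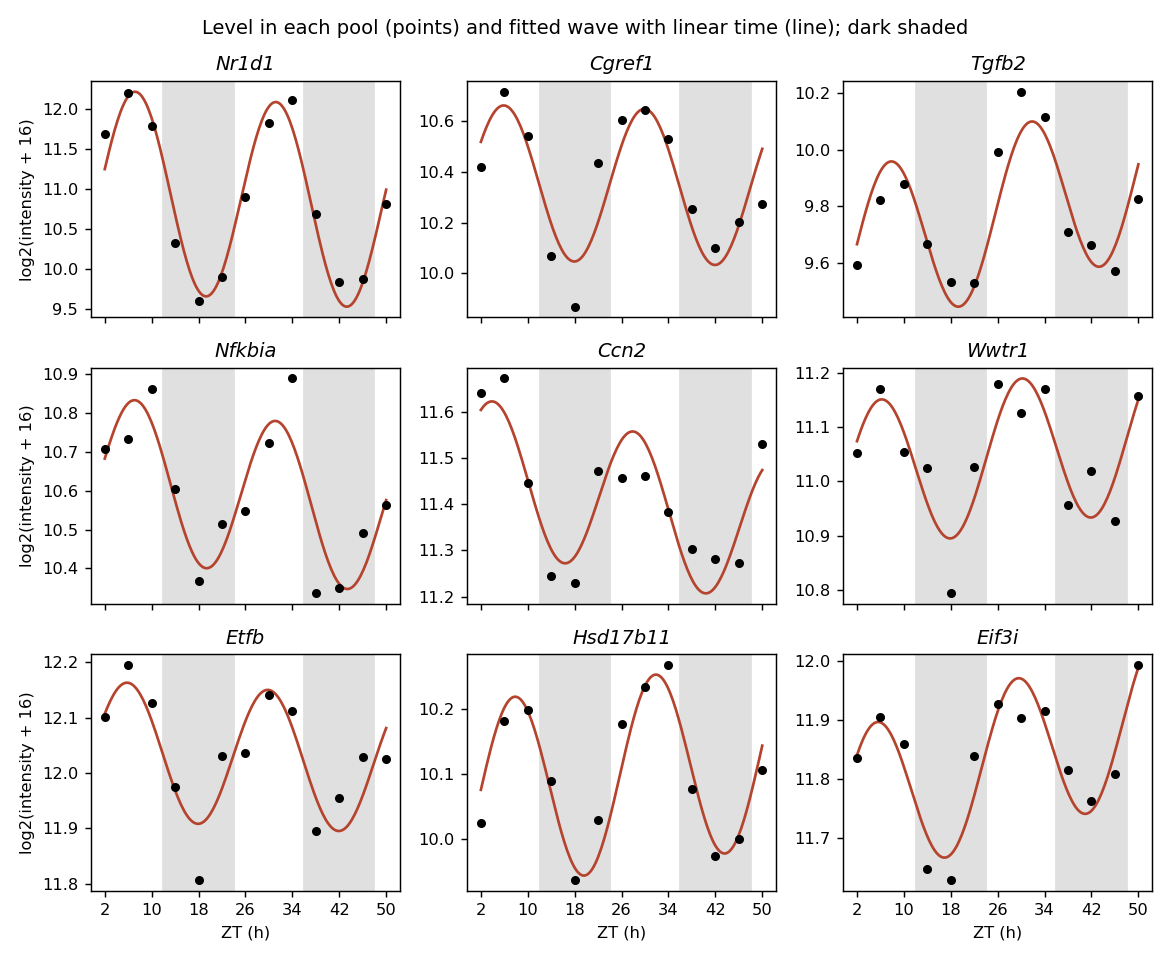
Level of 9 members in each pool (points, log2 of intensity + 16) with the fitted 24 h wave and linear time (line) against ZT, dark hours shaded. Scales differ between panels: Nr1d1 spans more than 2 log2 units and the others less than 1; Tgfb2 is higher on the second day.

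Cgref1, which encodes a secreted calcium-binding protein with EF-hand domains, had the second largest amplitude. For Cgref1 the first day gave 1352 at ZT2, 1665 at ZT6, 1474 at ZT10, 1059 at ZT14, 919 at ZT18 and 1369 at ZT22. The later pools gave 1541 at ZT26, 1585 at ZT30, 1463 at ZT34, 1205 at ZT38, 1081 at ZT42, 1163 at ZT46 and 1222 at ZT50. The ZT6, ZT10, ZT26, ZT30 and ZT34 pools lay above all dark pools, and ZT2 and ZT50 did not, since ZT22 reached 1369. It averaged 1625 ± 56.4 at 6 h and 999.8 ± 114 at 18 h (SD, n = 2 each; fold 1.52, peak 5.9 ± 0.7 h, SE). Other calcium-linked members were Chp2, a partner of sodium-proton exchangers (fold 1.40, 4.3 h), Cib1, a calcium and integrin binding protein (1.20, 5.8 h), and the copine Cpne5 (1.20, 7.3 h). Lypd6, a membrane-anchored protein of the Ly6 family, averaged 1173 ± 125 at 6 h and 965.0 ± 102 at 18 h (fold 1.42, 5.5 h). Of enzymes that act outside the cell or in its membranes, the arylsulfatase Arsi had a fold of 1.34 at 6.5 h and Hs3st1, which sulfates heparan sulfate, 1.22 at 5.5 h. Duoxa1, needed to bring the hydrogen peroxide-making enzyme Duox1 to the cell surface, had 1.24 at 5.1 h, and Mpzl3, an adhesion protein whose loss in mice gives a rough coat and skin changes, 1.21 at 5.7 h.

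Several members, grouped here after they were seen, encode mitochondrial proteins. Etfb, the beta subunit of the electron transfer flavoprotein that takes electrons from fatty acid oxidation to the respiratory chain, was the brightest member. Etfb stood at 4381 at ZT2, 4673 at ZT6, 4455 at ZT10, 4009 at ZT14, 3566 at ZT18 and 4168 at ZT22 on the first day. Afterwards it stood at 4183 at ZT26, 4504 at ZT30, 4414 at ZT34, 3794 at ZT38, 3954 at ZT42, 4163 at ZT46 and 4154 at ZT50. All 6 h and 10 h pools lay above all dark pools, and ZT50 (4154) lay just below ZT22 (4168) and ZT46 (4163). The fold was 1.19 with a peak at 5.9 ± 0.8 h (SE). Eci2, an enoyl-CoA isomerase of the same pathway, averaged 1125 ± 84.0 at 6 h and 923 ± 70.2 at 18 h (SD, n = 2 each; fold 1.24, 5.5 h), and its 7 light pools (lowest 1004) lay above its 6 dark pools (highest 973). Cpt2, which rebuilds acyl-CoA inside the mitochondrion, had a fold of 1.20 at 5.0 h, and Acadl, the long-chain acyl-CoA dehydrogenase, 1.19 at 4.2 h. These last 2 had a p above 0.02 with quantile normalization (0.0324 and 0.0204).

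On a list of mitochondrial fatty acid oxidation drawn up after the members were seen, these 4 were members among 19 measured genes (21.1%, against 0.472% of all genes). A list drawn up with its members in view favours this share and those that follow, so nothing is read from them. At any p, 11 of the 19 (57.9%) had a fitted peak between 4 and 8 h, and 52.6% with quantile normalization, against 18.7 and 21.2% of all genes. Among the brightest 4081 genes the shares were 25.5 and 21.8%. Hadha and Hadhb, the subunits of the trifunctional protein, peaked just before the window at 3.8 and 3.9 h with amplitudes of 0.07 and 0.09, and Acadm at 11.8 h with an amplitude of 0.04. Cpt1a, the gate of the pathway, had a fold of 1.17 at 4.5 h with an ordinary F p of 0.121.

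The respiratory chain list, also drawn up after the members were seen, gave 3 members among 81 measured subunit genes (3.70%, against 0.472% of all genes). Nothing is read from this share. The 3 were Uqcr10 of complex III (fold 1.23, 6.4 h), Atp5mpl of the ATP synthase (1.23, 4.7 h) and Cox7a2l, which joins complexes III and IV (1.24, 4.4 h). A further probe of Cox7a2l gave an amplitude of 0.108, peaking at 5.1 h. At any p, 45.7% of the 81 peaked between 4 and 8 h, both as deposited and with quantile normalization, against 18.7 and 21.2% of all genes, at a median amplitude of 0.07. Among the brightest 4081 genes the shares were 25.5 and 21.8%. The mean of the 81, in log2 from each gene's own mean, was lowest at ZT18 (-0.140) and highest at ZT50 (0.094). This low at 18 h did not recur on the second day, as ZT42 stood at 0.024 against 0.016 at ZT6. On the other list of oxidative phosphorylation genes, the count was 0 members of 31 measured, and 54.8% had a fitted peak in the window under both scalings. The mean of that list was -0.079 at ZT18 and 0.004 at ZT42. Mrpl54, of the large mitochondrial ribosome subunit, was the 1 member among 77 measured genes of that ribosome, with 1148 ± 92.0 at 6 h and 812 ± 126 at 18 h (SD, n = 2 each; fold 1.41, 4.2 h). The intensity of Mrpl54 was 985 at ZT2, 1083 at ZT6, 1069 at ZT10, 779 at ZT14, 723 at ZT18 and 1192 at ZT22. On the second day it was 1196 at ZT26, 1213 at ZT30, 1024 at ZT34, 916 at ZT38, 902 at ZT42, 1111 at ZT46 and 1087 at ZT50. The night pools ZT22 and ZT46 of Mrpl54 lay among the light ones, and its 4 lowest pools were ZT18, ZT14, ZT42 and ZT38.

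**Figure D5:**
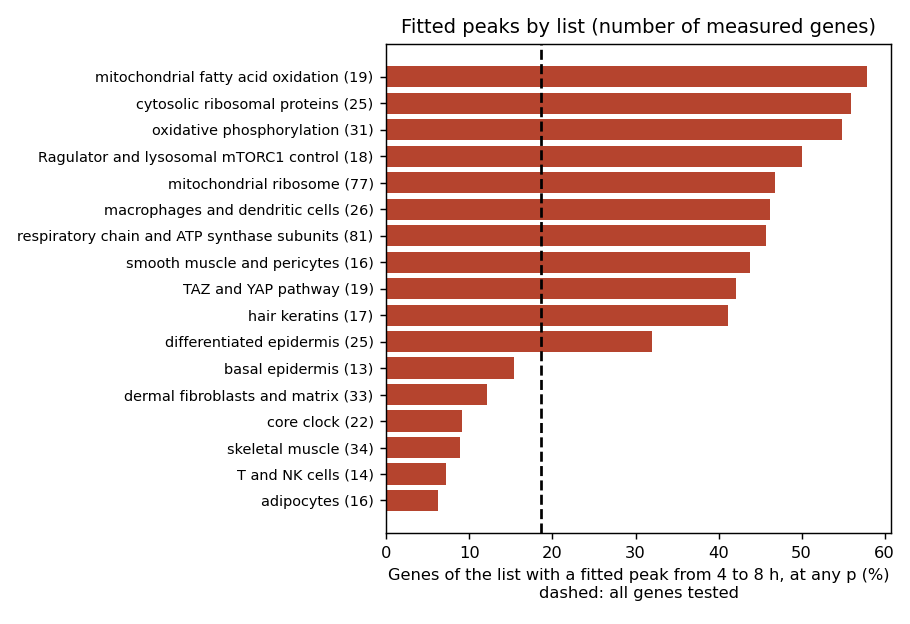
Share of the measured genes of each list whose fitted peak lay between 4 and 8 h, at any p, with the number of measured genes in brackets. The dashed line marks 18.7%, the share over all genes tested. The 17 lists shown were picked after their values were seen, and run from 57.9% for fatty acid oxidation to 6.25% for adipocytes.

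Lipid and small-molecule metabolism supplied further members. Hsd17b11, a dehydrogenase of steroids and retinoids that sits on lipid droplets, had the closest fit to its wave after Nr1d1 by p. Hsd17b11 had an intensity of 1025 at ZT2, 1145 at ZT6, 1159.5 at ZT10, 1074 at ZT14, 964 at ZT18 and 1029 at ZT22 on the first day. From ZT26 on it had 1142 at ZT26, 1189 at ZT30, 1217 at ZT34, 1064 at ZT38, 989.5 at ZT42, 1008 at ZT46 and 1087 at ZT50. The 6 h and 10 h pools of both days stood above all dark pools, with the top at ZT34 and the bottom at ZT18. Its fold was 1.22 with a peak at 7.7 ± 0.4 h (SE). Fabp7, a fatty acid binding protein, had a fold of 1.35 at 4.4 h, Hagh, which finishes the detoxification of methylglyoxal, 1.22 at 5.6 h, and Gdpd1, which cleaves lysophospholipids, 1.22 at 5.3 h. The transferase Gstm4, 1 of 20 measured glutathione S-transferases, had 1.23 at 6.6 h. Ip6k2, which makes inositol pyrophosphates, had a fold of 1.22 at 5.3 h with 1198 ± 33.8 at 6 h and 1034 ± 0.841 at 18 h (SD, n = 2 each). Nudt14, which splits UDP-glucose, had 1.20 at 4.3 h, and Phykpl, an enzyme of hydroxylysine breakdown, 1.21 at 5.6 h.

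Other members, grouped here after they were seen, act in protein synthesis, folding and turnover. For Eif3i the first day gave 3641 at ZT2, 3821 at ZT6, 3699 at ZT10, 3195 at ZT14, 3153 at ZT18 and 3649 at ZT22. The later pools gave 3878 at ZT26, 3817 at ZT30, 3848 at ZT34, 3587 at ZT38, 3459 at ZT42, 3573 at ZT46 and 4059 at ZT50. Eif3i is a subunit of the initiation factor that loads messenger RNA on the small ribosome subunit. ZT50 was its highest pool and ZT18 and ZT14 its lowest, and only ZT2 (3641) among the light pools fell below a dark one, ZT22 (3649). The fold was 1.20 at 5.3 ± 0.5 h (SE). Pfdn5, of the chaperone prefoldin, had a fold of 1.23 at 6.6 h, Nhp2, of the particles that modify ribosomal RNA, 1.19 at 4.3 h, and Sem1, a small subunit of the proteasome lid, 1.24 at 5.0 h. Eef1akmt3, which methylates an elongation factor, had 1.24 at 5.0 h. Rps4l had 1.24 at 4.4 h, but RefSeq lists it as a transcribed pseudogene and its probe may take up RNA of the near-identical ribosomal protein gene Rps4x, so its level is uncertain. Magef1 (1.21, 6.5 h) is listed as a transcribed pseudogene too. None of the 25 measured genes of the cytosolic ribosomal protein list was a member. The mean of this list was lowest at ZT18 (-0.086 log2) and highest at ZT50 (0.059), and ZT42 stood at -0.008. Of the 25 genes, 56.0% had a fitted peak in the window, at a median amplitude of 0.04, and 48.0% with quantile normalization, against 18.7 and 21.2% of all genes. Among the brightest 4081 genes the shares were 25.5 and 21.8%.

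Lamtor2 and Lamtor4 encode parts of Ragulator, the anchor that brings the growth kinase mTORC1 to the lysosome when amino acids are plentiful. Lamtor4 stood at 2809.9 at ZT2, 3052 at ZT6, 3005 at ZT10, 2845 at ZT14, 2347 at ZT18 and 2861 at ZT22 on the first day. Afterwards it stood at 3147 at ZT26, 2982 at ZT30, 3091 at ZT34, 2709 at ZT38, 2626 at ZT42, 2991 at ZT46 and 3026 at ZT50. Its lowest pool was ZT18, ZT46 lay among the light pools, and the fold was 1.20 at 5.8 ± 0.9 h (SE). Lamtor2 averaged 525 ± 29.4 at 6 h and 452 ± 1.25 at 18 h (SD, n = 2 each; fold 1.19, 4.5 h). They were 2 of the 5 measured Lamtor genes, and Lamtor5 had a fold of 1.13 at 4.4 h, Lamtor1 1.11 at 3.6 h and Lamtor3 1.03. Slc38a7, a glutamine transporter of the lysosome, had a fold of 1.19 at 4.2 h, and Wipi1, which marks membranes for autophagy, 1.21 at 5.9 h. On a list of Ragulator and mTORC1 control genes drawn up after the members were seen, 2 of 18 measured genes were members (11.1%, against 0.472% of all genes). At any p, 50.0% of them peaked in the window, against 18.7% of all genes and 25.5% of the brightest 4081. A list drawn up with its members in view favours both shares, and nothing is read from them.

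The widest family was that of transmembrane proteins named Tmem, a name and not a function, with 5 members among 205 measured (2.44%, against 0.472% of all genes). At any p, 47 of the 205 had a fitted peak in the window, and 3046 of all 16322 genes. Tmem120a had a fold of 1.26 at 5.7 h with 769.5 ± 21.0 (SD, n = 2) at 18 h, its lowest time of day. Tmem18 had 1.26 at 4.8 h, Tmem42 1.28 at 4.6 h, Tmem139 1.24 at 5.9 h and Tmem243 1.22 at 6.1 h. Other membrane and trafficking members were Vat1 (fold 1.33, 4.5 h), Zdhhc4, which palmitoylates proteins (1.21, 6.8 h), Mpdu1, needed to use dolichol-linked sugars (1.21, 4.9 h), Pgap6, which trims GPI anchors (1.19, 4.0 h), Rab11fip5, a partner of Rab11 on recycling vesicles (1.19, 4.9 h), and Ano10 of the anoctamin family (1.19, 5.1 h). The intensity of Vat1 was 3415 at ZT2, 3435 at ZT6, 3257 at ZT10, 2495 at ZT14, 2499 at ZT18 and 2909 at ZT22. On the second day it was 3171 at ZT26, 3472 at ZT30, 2650.3 at ZT34, 2253 at ZT38, 2334 at ZT42, 2517 at ZT46 and 2386 at ZT50. The ZT34 and ZT50 pools of Vat1 lay below its dark ZT22 pool, and its top was at ZT30.

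The remaining members have mixed roles or roles not stated here. Cdca3, which helps cells enter mitosis, had a fold of 1.24 at 5.1 h, and Pold4, the small subunit of DNA polymerase delta, 1.20 at 4.4 h. None of the 31 measured genes of G1/S and replication and none of the 28 of G2/M was a member by list. The splicing protein Zmat2 had 1.19 at 4.1 h, the tubulin tyrosine ligase Ttl 1.19 at 5.0 h, and the inactive phospholipase Plcl1 1.22 at 7.5 h. Ccdc122, Commd9, AI661453, Mettl22, Vstm5, Zfp1 and N4bp2l1 had folds from 1.20 (N4bp2l1) to 1.41 (Ccdc122).

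Some members are known from muscle or fat. Trarg1, which regulates traffic of the insulin-driven glucose transporter in both tissues, averaged 1043 ± 162 at 6 h and 749.8 ± 22.4 at 18 h (SD, n = 2 each; fold 1.48, 7.9 h). Trarg1 had an intensity of 1046 at ZT2, 1158 at ZT6, 1095 at ZT10, 823 at ZT14, 766 at ZT18 and 787 at ZT22 on the first day. From ZT26 on it had 833 at ZT26, 929 at ZT30, 1315 at ZT34, 846 at ZT38, 734 at ZT42, 812 at ZT46 and 828 at ZT50. Its top was at ZT34, and the morning pools ZT26 and ZT50 lay among the dark ones. Cavin4, of muscle caveolae, had a fold of 1.22 at 6.9 h, Dysf, which repairs muscle membrane, 1.19 at 4.5 h, Nol3, an inhibitor of cell death abundant in muscle, 1.25 at 6.8 h, and Kcne1, a potassium channel subunit, 1.34 at 4.1 h. The skeletal muscle list held no member among 34 measured genes. Its mean level varied from -0.56 log2 at ZT2 to 0.39 at ZT30, with a fitted peak at 9.2 h, and that of the adipocyte list (16 measured, 0 members) from -0.15 at ZT26 to 0.18 at ZT14, with a fitted peak at 13.8 h. With both list means as covariates, 55 genes met the rule, of which 26 were members, and the members' amplitudes were 1.05 times as large by the median ratio. In that fit, which has 2 residual degrees of freedom fewer, 43 members had p under 0.02 and 54 kept a peak between 4 and 8 h. Of the 5 genes above only Trarg1 met the rule there.

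The cell type lists otherwise gave no members. Hair keratins (17 measured), differentiated epidermis (25), basal epidermis (13), follicle stem cells and outer root sheath (19), melanocytes (13), sebaceous gland (14), dermal fibroblasts and matrix (33), blood vessel endothelium (21), lymphatic endothelium (7), smooth muscle and pericytes (16) and Schwann cells and nerve (11) held 0 members each. Hair keratins and differentiated epidermis were bright, with median levels of 13.4 and 12.3 log2, against 9.66 over all genes tested. Hepatocyte genes, whose mean stood 2.15 log2 above its own average at ZT46, held 0 members of 14, and without that pool 65 genes met the rule, 60 of them members. Of 42 lists with 851 measured genes, 37 held no member. As members are 0.472% of all genes, a list of such a size is likely to hold none. Nothing is therefore read from the lists without a member, here or above. At any p, the share of genes with a fitted peak in the window differed between the skin cell lists named first in this paragraph. It ran from 0% for Schwann cells and nerve to 43.8% for smooth muscle and pericytes, against 18.7% of all genes.

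The tests left to the set are those that the rule did not use. No gene drifted over the 48 h in limma after Benjamini-Hochberg adjustment over all genes (0 of 16322, 0%), and the smallest adjusted p among the members was 0.256. At an unadjusted p under 0.05, 15 members (19.5%) had a positive slope, against 3.22% of all genes, and 2 (2.60%) a negative one, against 5.59%. The median slope was 0.04 log2 per 24 h in members and -0.01 in all genes. Sem1 (0.15 per 24 h), Atp5mpl (0.16), Cox7a2l (0.15) and Uqcr10 (0.16) were among those with positive slopes, and Tmem42 (-0.22) and Vat1 (-0.20) were the 2 with negative ones. None of these slopes passed the adjusted test. The drift test sets each slope against residuals of the fit that chose the members. The rule favours small residuals, so it favours higher counts of slopes in members, and nothing is read from these shares.

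A 12 h wave beside the 24 h one was found in no gene (limma, smallest adjusted p 1.0), and 1 member, Nfkbia, had an unadjusted p under 0.05 (1.30%, against 1.78% of all genes). The median 12 h amplitude was 0.05 log2 in members and in all genes. The rule favours genes with small residuals, which hold any 12 h wave and any difference between days, so it favours low counts in these tests.

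The wave of the second day did not differ from that of the first in any member at an adjusted p under 0.05 (limma, 6 pools a day without ZT50), against 2.93% of all genes tested (478 genes). That share over all genes was itself unstable: 0 genes were called with median centring, quantile normalization or no filter, 5 with a 50th percentile filter, 2292 with the muscle and adipocyte covariates, and between 0 and 1567 with each pool left out in turn (0 without any of 8 pools, 1567 without ZT42). At an unadjusted p under 0.05 there were 8 members (10.4%), against 26.6% of all genes. Nr1d1 came closest, with a fitted peak at 7.9 h on the second day and 6.4 h on the first (adjusted p = 0.0522, limma). Fitted day by day, the median peak of the members was 5.8 h on the second day and 4.8 h on the first, and it was later on the second in 48 of 77. The median amplitude was 0.15 log2 on both days. Both days' peaks lay between 4 and 8 h in 37 members and between 2 and 10 h in 76. Arsi had an amplitude of 0.29 on the second day and 0.13 on the first (adjusted p = 0.0963, limma), and Cpt2 had 0.07 on the second and 0.21 on the first (adjusted p = 0.152, limma).

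Beyond level, members had short genes. Their median length from first to last transcribed base was 13468 bases in RefSeq, against 19820 over the 16265 tested genes with a length, and 66.2% were shorter than 20 kb, against 50.2%. Bright genes as a class were not shorter, with 44.1% under 20 kb among genes above the median level. No test was made of this difference. The members came from 20 chromosomes, with at most 9 on any of them. Around the fitted wave the median correlation between the residuals of any 2 members was 0.12 over the 13 pools, which all members share. It was not computed for other genes, so it is not called low or high.

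Which genes make up the set hangs on single pools. When each pool was left out in turn, 19 members met the rule in 13 of 13 fits, 41 in at least 10, and 17 in fewer than 5. Nr1d1, Cgref1, Tgfb2, Csta1, Commd9, Tmem18, Tmem120a, Eif3i, Pfdn5, Ip6k2, Mpzl3 and Wipi1 are among the 19, while Kcne1 met it in 1 fit and Rps4l, Fabp7, Cd1d1 and Ccdc122 in 2 each. The count fell to 50 without ZT34, of which 48 were members, and without ZT18 there were 93 genes but only 37 of the 77.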

How the data were processed

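The authors deposited 1 table of probe intensity on a linear scale. The tools listed in the submitters' processing notes, without a role, are PLIER 2.0 and Affymetrix Expression Console 1.1.1. Scaling between arrays and a genome build are not given in the sources used here. The table holds 35557 probes, of which 21789 have 1 gene symbol in the platform annotation. Values were used as log2(intensity + 16). Of several probes of a gene, which concerned 831 genes, the brightest by mean represented it, and probes with a mean under the 25th percentile (7.61 log2) were left out. Drift, the 12 h wave and the days were tested in limma 3.58.1 (R 4.3.3) over all genes with Benjamini-Hochberg adjustment, and the methods were tested on simulated data. The number of arrays sets how precise a value is, and p-values reflect how pools of 3 mice differ.

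The members and gene lists were chosen with earlier results of these data known. Lists on fatty acid oxidation, the respiratory chain, the mitochondrial ribosome, Ragulator, TAZ and YAP, interleukin-1 and Toll receptors and glutathione S-transferases, and the promoter motifs, were drawn up after the members were seen. Older symbols were matched through RefSeq (GRCm38.p6). Named by rule were the 15 largest amplitudes, list and family members, those at the limits of the rule and the 5 brightest; all other members were named after their values were seen. Python 3.11.15 with matplotlib 3.10.9 made the figures and searched the promoters.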

Additional observations from a re-analysis of the deposited data

How the results depend on the processing

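The count of 77 genes was 164 with median centring, 116 with p under 0.05, 14 with an amplitude of 0.2 or more and 1 with an adjusted p under 0.05. It was between 50 (without ZT34) and 110 (without ZT30 or without ZT42) when each pool was left out. Under the other settings it stayed within 1.5 times, at 83 with quantile normalization, 80 and 71 with pseudocounts of 1 and 64, 77 with no filter, 67 with a 50th percentile filter, 81 with the mean of a gene's probes, 72 without linear time (52 shared), 90 with day in its place (46 shared), and 55 with muscle and adipocyte covariates (26 shared), and 52 with p under 0.01; with limma's moderated F it held all 77 and more. For drift and the 12 h wave 0 members passed under any setting run. For the second day against the first the count was 1 with the covariates (Nr1d1, adjusted p = 0.0489), and with each pool left out it was between 0 and 1, with Nr1d1 passing without ZT38 (0.0441) and without ZT42 (0.0463). The cause of these moves was not tested. The fitted amplitudes of 27 genes named by rule moved by less than 1 residual SD in 615 of 615 repeats under these settings. That limit is wide: the fold of Cavin4 went from 1.22 to 1.11 with the covariates and still counts as unmoved. No paired analysis was run. The labels carry no replicate numbers, but the days share their hours, so pools could be paired by hour. The fit with day as a term is the one given above. Times of day have 2 or 3 pools, too few to look for a pool apart from the rest within a time.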
